A study of Mus musculus with 12 samples.

Results

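The imprinted loci Snrpn, Gnas, Dlk1 and Kcnq1 carried 17 of the 2798 CpG sites that the authors' deposited table lists as differently methylated between splenic dendritic cells of mice whose mothers had received a phthalate and those whose mothers had received corn oil. The 17 sites were all listed sites within the RefSeq span of 6 genes (Snrpn, Snurf, Snhg14, Gnas, Dlk1 and Kcnq1), or within 5 kb of it. They lay at 5 separate places, of which 2 were runs of neighbouring CpGs and 3 were single sites. Of these 17 sites, 11 were hypermethylated and 6 hypomethylated in the authors' deposited table, and every site of a run had the direction of its neighbours. Of the 11, 9 belong to the run at Snrpn. Among all 2798 listed sites, 1354 were hypermethylated and 1444 hypomethylated. Of all protein-coding genes, 3.48% had a hypermethylated and 3.77% a hypomethylated listed site in the span or within 5 kb, and nothing is read from the members' counts against these shares because the members were taken from the list.

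Imprinted genes are expressed mainly from the allele of 1 parent. In most clusters a stretch of CpGs, the imprinting control region, is methylated in the egg or in the sperm, and the mark is kept on that allele in the body cells of the offspring. Such germline marks can direct secondary, or somatic, methylation that is acquired after fertilisation at other promoters of the cluster. Because 1 allele is methylated and the other is not, bulk DNA from a control region with an intact mark reads close to 50 percent methylation. The maternal marks at Snrpn, at the start of the Kcnq1 antisense transcript Kcnq1ot1 and at Gnas are set in growing oocytes, whereas the mark of the Dlk1 cluster lies between Dlk1 and Meg3 and is set in the male germ line.

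The data were 12 reduced representation bisulfite sequencing libraries from CD11c dendritic cells of the spleen, taken from female mice of the F1 generation, all labelled as immunised with OVA. The F0 mothers were C57BL/6 females that received di(2-ethylhexyl) phthalate (DEHP), a plasticiser, at 37 µg per kg per day or the vehicle for 10 days (6 libraries each, with corn oil named as the vehicle in the labels), and they were then mated with untreated males. The labels describe the C57BL/6 females and males as 6 to 8 weeks old when obtained. They give no age for the offspring, do not say whether a library is 1 animal or a pool, and do not say how many mothers the libraries represent. Spleen tissue is also named as a source of DNA in the extraction protocol. The parents are given as 1 inbred strain, so the maternal and paternal alleles of the offspring could not be separated, and the parental allele named below for each place is background knowledge and was not measured.

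What was deposited is the authors' comparison of the groups as wholes, without levels, read counts or coverage of the individual libraries. Spread between libraries, depth and overlap of the groups are therefore unknown for every value below. Cell identity could not be checked, since the list holds no expression values. The sources used here do not give which group was subtracted, and a positive difference is taken to mean more methylation in the offspring of DEHP-treated mothers. If the subtraction ran the other way, every direction below would turn. The members were chosen from this list, so their presence in it and their size are descriptions and not tests. The smallest absolute difference in the authors' deposited table was 25.0 percentage points, so a CpG that is not listed may have changed less or may not have been covered.

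The run at Snrpn lies at the shared start of Snurf and the main Snrpn transcript, where the germline control region of the cluster is known to sit. Snrpn encodes a protein of the splicing machinery, Snurf is a short reading frame on the same transcript, and Snhg14 is a long noncoding RNA that hosts small nucleolar RNAs and runs antisense to Ube3a. All of these are expressed from the paternal allele, on which the control region is unmethylated. The sequence below, from RefSeq (GRCm38.p6, chr7:60005150-60005449, minus strand), shows that start, with 250 bases before the first base of Snurf and 50 from it onward. Capitals mark the CpGs listed in the authors' deposited table. It is printed because all the listed CpGs it holds lie at or after the start.

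Snurf and Snrpn start: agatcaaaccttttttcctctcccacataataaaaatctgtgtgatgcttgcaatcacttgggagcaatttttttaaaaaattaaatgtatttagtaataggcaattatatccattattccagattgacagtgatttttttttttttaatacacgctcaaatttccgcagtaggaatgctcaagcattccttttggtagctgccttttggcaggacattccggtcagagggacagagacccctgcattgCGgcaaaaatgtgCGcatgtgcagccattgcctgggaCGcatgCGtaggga

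The window holds 7 CpGs, and the authors' deposited table lists 4 of them. These were the 4 CpGs at or downstream of the first transcribed base, at 60005199 (44.7 percentage points), 60005186 (45.4), 60005162 (41.4) and 60005156 (41.6). The 3 CpGs upstream of the start, 29, 84 and 96 bases before it, were not in the list. A further 5 listed CpGs continued the run downstream of the window and into the gene. In the authors' deposited table these were at 60005146 (56.6 points), 60005144 (46.9), 60005142 (44.8), 60005123 (46.6) and 60005111 (46.3), the last 88 bases into Snurf. The run of 9 listed CpGs therefore covered 89 bases from the start base onward, with gaps of 2 to 24 bases between listed sites. Coverage of the 3 upstream CpGs is unknown, so no border of the difference at the start can be read from the list. All 9 lie in the spans of Snurf, Snrpn and Snhg14 at once, so they are 1 set of sites and not 3.

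**Figure D1:**
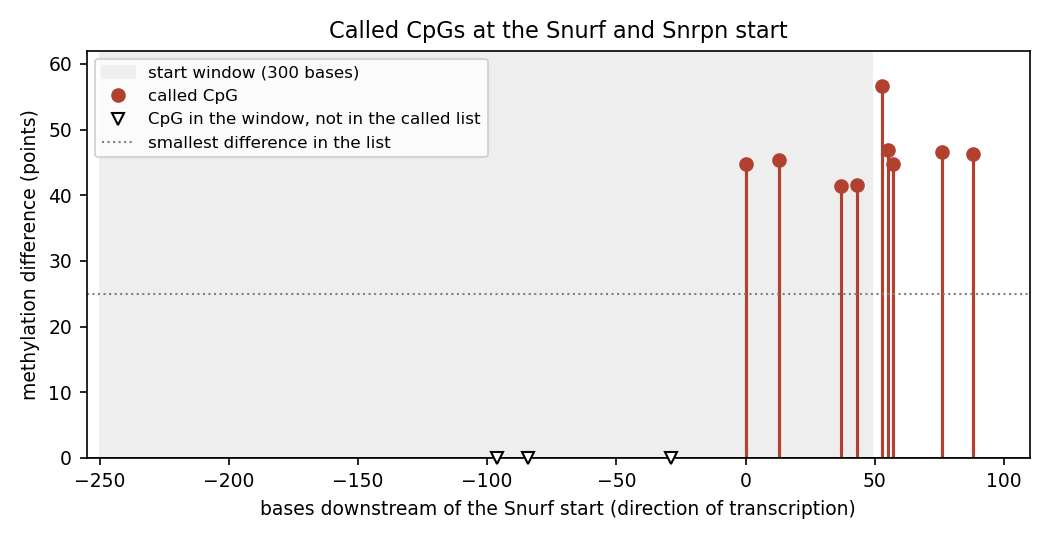
Methylation difference (percentage points, maternal DEHP minus corn oil as read here) of each listed CpG at the Snurf and Snrpn start, by distance in bases from the first base of Snurf in the direction of transcription. The 9 listed CpGs lie between 0 and 88 bases downstream at 41.4 to 56.6 points, the open triangles are the 3 CpGs of the start window that are not in the list, and CpGs beyond the shaded window are shown only where listed.

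Of the 9 differences, 8 were close to each other. Without the highest, they ran from 41.4 to 46.9 points in the authors' deposited table, a range of 5.5 points. The highest, 56.6 points at 60005146, stood 9.8 points above the next, which is the CpG 2 bases away from it. The 4 sites inside the window had a mean of 43.3 points and the 5 beyond it a mean of 48.2 points. The window edge is a fixed distance from the start, and the 5 beyond it include the highest site, so no gradient is read from these means. Neighbouring CpGs can be read on the same DNA fragments, so these 9 values are not independent, and no error could be put on their differences.

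The sizes set limits on the levels of the groups. A difference of 41.4 points, the smallest of the run in the authors' deposited table, allows a group at 50 percent only if the other was at 8.6 or 91.4 percent. At the CpG with 56.6 points neither group could have been at 50 percent, because the higher group must have been at 56.6 percent or above and the lower at 43.4 percent or below. Of all 2798 listed sites, 18 differed by more than 50 points (0.643%), and this CpG was 1 of them and ranked 5 by absolute difference. The other 8 of the run ranked between 35 and 123. All 9 differed by at least 40 points, which 152 listed sites did (5.43%).

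A pair of short sequence words were searched in the start window on both strands. TGCCGC is the word bound, when methylated, by ZFP57, a zinc finger protein known to keep methylation at imprinting control regions. It occurred 1 time, at 60005196 to 60005201, and the CpG inside it is the listed CpG at the first base of Snurf (44.7 points in the authors' deposited table). On the strand printed above the word reads GCGGCA. Of all 32815 start windows of this length in the RefSeq table, a share of 11.6% hold it, and of the 61 distinct windows of the imprinted genes listed for this work 16 do (26.2%). The word itself holds a CpG and the CpG content of these sets of windows was not matched, so nothing is read from the shares. Overlapping windows of 1 gene, as at Mest, are counted separately. The other 15 of those 16 windows held no listed CpG. The word CCGG, which is cut by MspI, the enzyme commonly used for this assay (the enzyme is not named in the labels), occurred 1 time, at 60005227 to 60005230, and occurs in 52.8% of all windows. Its CpG is the unlisted one 29 bases upstream, and the whole run lay on its downstream side, 28 to 116 bases from the start of the word. A match is a description of the letters and shows neither binding nor cutting.

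Few of the annotated start windows held a listed CpG, though coverage of the windows is unknown. A start window with any listed CpG occurred 55 times among the 32815 (0.168%), and 4 or more listed CpGs occurred in 3 windows (0.00914%), of which the Snurf and Snrpn window is 1. All 74 listed sites that fell in a start window stood on the C of a CpG on the plus strand, so the positions and the sequences share a build and count from the same base. The 3 other annotated starts of Snrpn, at 60047978, 60140225 and 60450177 on chromosome 7, have 4, 3 and 2 CpGs in their windows, and none was listed. The last of these is also the start of Snhg14.

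The rest of the Snrpn cluster carried no listed CpG at a gene. Ube3a, a ubiquitin ligase that neurons express from the maternal allele, lay 694.3 kb from the nearest listed site. Ndn, Magel2, Mkrn3 and Peg12, all paternally expressed, lay 748.1 to 862.7 kb from one. The next listed site beyond Snrpn was 980.9 kb from its span, at 61431037, in no annotated gene, and it was hypomethylated (-25.7 points in the authors' deposited table). On the other side no listed site lay within 3316.5 kb of the run. A listed site lay in the span or within 5 kb for 4.11% of all RefSeq genes and 6.51% of protein-coding genes. At least 5 listed sites were held by 26 genes (0.052% of all RefSeq genes). Genes that share sites are counted separately in the 26, among them Snrpn, Snurf and Snhg14, and also Gnas and Gnasas1.

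Gnas encodes the stimulatory G protein alpha subunit that links receptors to adenylyl cyclase, and its locus makes other products from alternative first exons. The Nesp transcript starts first and comes from the maternal allele, and its promoter carries a somatic mark on the paternal allele. The antisense transcript Gnasas1 (Nespas) and the extra-large form of Gnas come from the paternal allele, and their shared promoter region carries a germline mark on the maternal allele. A second germline mark on the maternal allele lies at exon 1A, just upstream of the main Gnas start.

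A run of 5 hypomethylated CpGs lay 1319 to 1391 bases downstream of the first annotated Gnas start (174284320 on chromosome 2), which is that of Nesp. In the authors' deposited table the differences were -32.5 points at 174285639, -34.6 at 174285666, -28.7 at 174285683, -33.1 at 174285688 and -36.9 at 174285711. The run covered 73 bases with gaps of 5 to 27 bases and a mean of -33.2 points. The weakest of the 5, at 174285683, was also the only member site whose deposited q-value was not 0 (2.62e-14). All 5 also lie in the span of Gnasas1, 9725 to 9797 bases before the end at which that antisense transcript begins.

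The sixth Gnas site had the opposite direction. It lay at 174300469, 14.8 kb downstream of the run and 5033 bases beyond the end of the Gnasas1 span, and was hypermethylated by 35.2 points in the authors' deposited table. This is the side of Gnas on which the germline mark of Gnasas1 and the extra-large form lies, but the borders of that mark were not in the sources used here, so whether the site is inside it was not tested. The run is on the side of the somatic mark of Nesp, with the same limit. Between the mean of the run and the sixth site the difference changed by 68.4 points. At a group level of 50 percent the other group would have been at 14.8 or 85.2 percent at the sixth site.

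**Figure D2:**
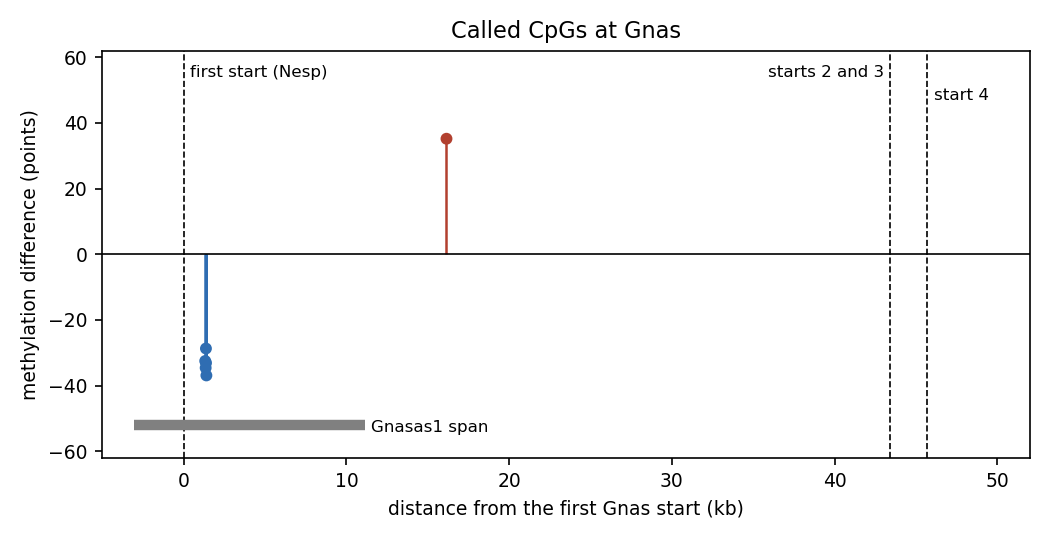
Methylation difference (percentage points, maternal DEHP minus corn oil as read here) of the 6 listed CpGs at Gnas, by distance in kb from the first Gnas start, with the other annotated starts as dashed lines and the span of the antisense Gnasas1 as a grey bar. The 5 hypomethylated CpGs (-28.7 to -36.9 points) lie just downstream of the first start, and the hypermethylated CpG (35.2 points) lies between Gnasas1 and the later starts.

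No listed CpG lay at the other Gnas starts in the table of starts. That table held no start of the extra-large form or of Gnasas1, so their germline-marked promoter region had no window to examine. The exon 1A starts at 174327749 and 174327768 have 27 and 28 CpGs in their overlapping windows, and the start at 174330006 has 40. The closest listed site to any of them was the sixth site, 27280 bases upstream of the first of these. The window of the Nesp start itself has 16 CpGs, none listed. Outside Gnas, the nearest listed site was 306.8 kb away (39.8 points in the authors' deposited table).

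Kcnq1, a voltage-gated potassium channel gene expressed from the maternal allele early in development, held 1 listed CpG. It lay at 143401127 on chromosome 7, 294.2 kb into a span of 320.2 kb, and differed by -28.2 points in the authors' deposited table. The control region of this cluster is at the start of Kcnq1ot1, an antisense RNA that begins within Kcnq1 at 143296547. The listed CpG was 104.6 kb from that start and outside the Kcnq1ot1 span. The Kcnq1ot1 start window has 9 CpGs, none of them listed. Of protein-coding genes with spans of at least 100 kb, 16.5% had a listed site, against 5.27% of shorter ones. Cdkn1c, a cell cycle inhibitor, and Phlda2, Slc22a18, Ascl2, Tssc4, Cd81 and Osbpl5 had none, and their nearest listed sites were 57.2 to 431.9 kb away.

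Dlk1, which encodes a membrane protein related to Notch ligands and is expressed from the paternal allele, was taken in by the 5 kb margin. Its CpG lay at 109448647 on chromosome 12, 3838 bases before the span and 4176 bases before the annotated start in the table of starts, and differed by 27.1 points in the authors' deposited table. It was the member farthest from its span that the rule kept, and the next listed site on the other side of the limit was 489.2 kb away. The germline mark of the cluster lies between Dlk1 and Meg3, a distance of 77.7 kb, and 0 listed CpGs lay there. Meg3, a maternally expressed noncoding RNA, and Rtl1, Rian, Mirg and Dio3 had no listed site within 5 kb. Between Mirg and Dio3 the authors' deposited table had 3 further sites, all hypomethylated (-26.8, -27.8 and -34.7 points), the nearest of them 28.7 kb from Dio3.

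Of the 5 places, then, the Snrpn run was at the start where a germline control region is known to lie, the Gnas run and the sixth Gnas site were within 16149 bases of the Nesp start on either side of the antisense start, and the Kcnq1 and Dlk1 sites were away from the control regions of their clusters. The Kcnq1 and Dlk1 sites ranked 1550 and 1876 of 2798 by absolute difference, close to the median of the list, 28.7 points in the authors' deposited table. The sites of the Gnas run ranked from 288 to 1412 and the sixth Gnas site ranked 400.

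Long runs in 1 direction were few. Of 2284 runs formed by joining listed sites within 1 kb, 24 had at least 4 sites. A single direction was held by 15 of these, 5 hypermethylated and 10 hypomethylated, and the runs of mixed direction were not ranked. The Snrpn run had the highest absolute mean of the 15 (46.0 points, SD between its sites 4.5) and ranked 3 among the 15 by number of sites. After it in the authors' deposited table came the run near Sox3, an X-linked transcription factor gene (-38.4 points, 13 sites), that near Lingo3 (36.0, 5 sites), a run on chromosome 11 with no gene within 5 kb (-35.8, 4 sites) and then the Gnas run (-33.2, 5 sites, SD between its sites 3.0). The sites of the Gnas run were from -28.7 to -36.9 points. This range overlapped that of every other hypomethylated run of the 15 except the run near Oprd1 (-25.1 to -26.4). Nearest in absolute mean among those overlapping were the run at Gm4349 (-26.2 to -37.4) and the chromosome 11 run (-27.0 to -42.5). By absolute size, several runs overlapped the Snrpn range of 41.4 to 56.6 points in part. These were the run near Fbxo31, also hypermethylated (up to 46.2 points), and that near Lingo3 (up to 42.8). The hypomethylated runs near Sox3 (reaching -45.8) and on chromosome 11 (reaching -42.5) did so too. Such ranks describe the list and do not test whether imprinted places differ from others.

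**Figure D3:**
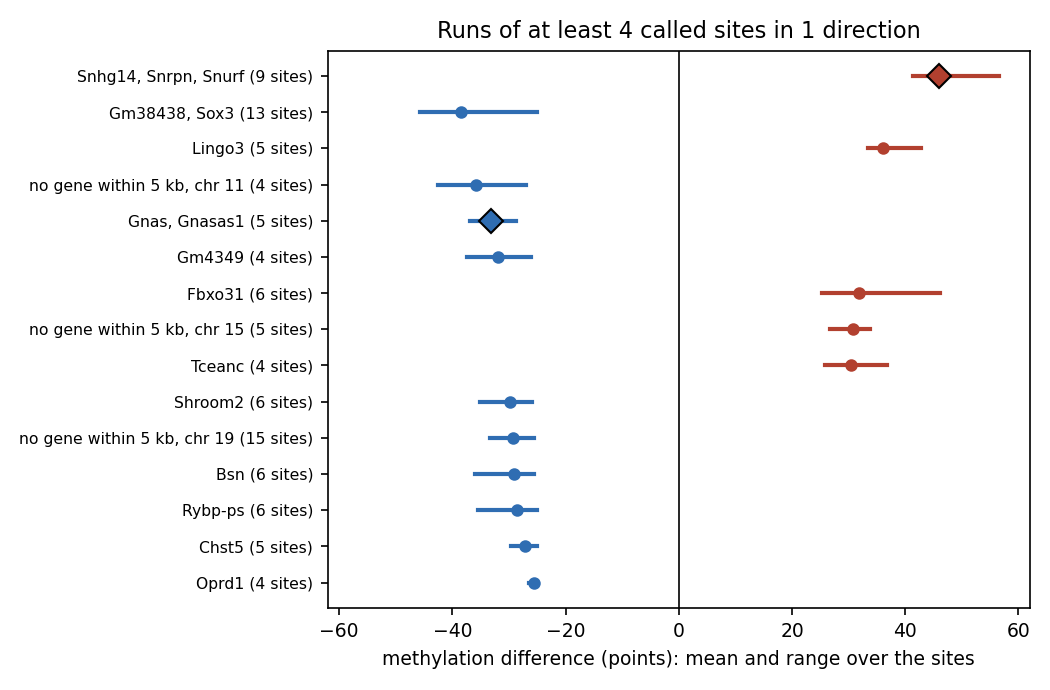
Mean (marker) and range (line) of the methylation difference in percentage points over the sites of each of the 15 runs with at least 4 listed CpGs in 1 direction, labelled by the genes within 5 kb, with diamonds for the imprinted loci. The Snrpn run has a mean of 46.0 points and the Gnas run a mean of -33.2 points.

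The other imprinted clusters give the setting. Of 57 genes in 20 clusters with a known germline mark, 7 carried a listed site (12.3%, against 4.11% of all RefSeq genes). These were the 6 genes named at the start and Gnasas1, which shares the Gnas run. Since the 6 were chosen from this list, nothing is read from that share. The remaining 16 clusters carried none in the span of a listed gene or within 5 kb. This count depends on the margin: within 20 kb the Nnat cluster and that of Peg13, whose gene Kcnk9 lay 13.8 kb from a listed site, also carried one, which left 14 clusters with none. Among them were H19 and Igf2, a growth factor cluster marked in sperm (492.8 kb from the nearest listed site), Peg3 (523.6 kb or more over its 3 genes), Mest (1837.5 kb), Igf2r and its antisense Airn (625.0 kb or more) and Peg10 (4670.8 kb). The median distance over the 16 clusters was 498.6 kb. Closest was the cluster of Nnat, a membrane protein gene within an intron of Blcap, where a CpG hypermethylated by 45.5 points in the authors' deposited table lay 5157 bases outside the Blcap span and 8.9 kb from Nnat. That site is named after its value was seen. How many CpGs were covered at these clusters is unknown, so a cluster without a listed site was not shown to be unchanged.

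**Figure D4:**
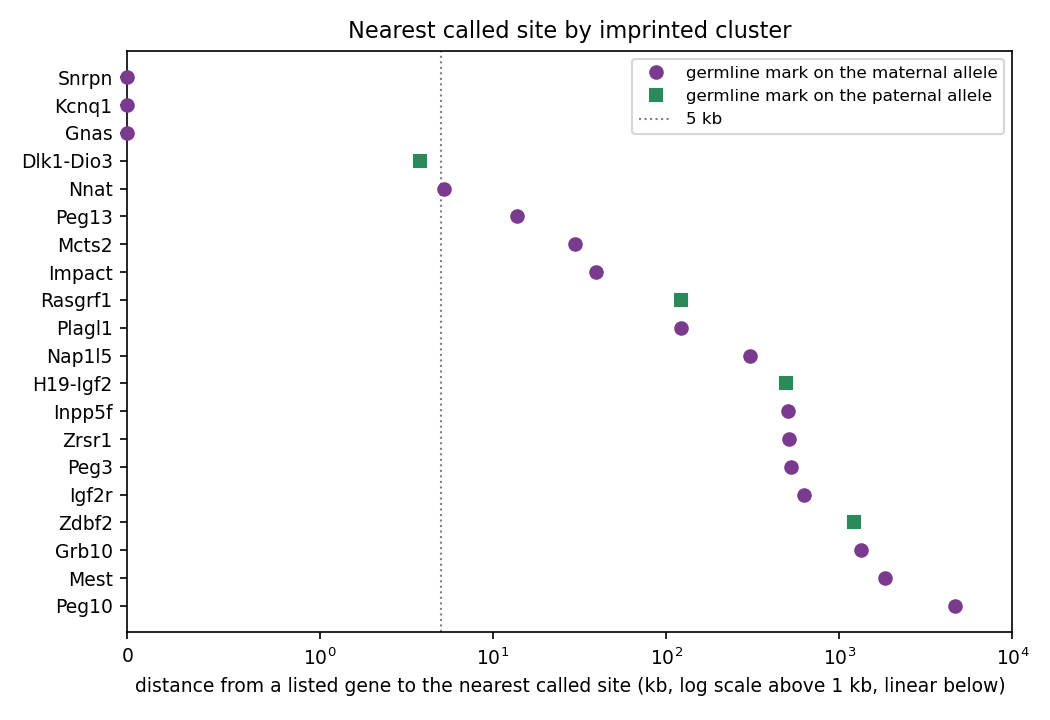
Distance in kb from a listed imprinted gene to the nearest listed CpG for 20 imprinted clusters (log scale above 1 kb), with circles for a maternal and squares for a paternal germline mark. Snrpn, Gnas and Kcnq1 are at 0 kb and Dlk1 at 3.8 kb, and the other 16 clusters lie between 5.2 and 4670.8 kb.

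The genes examined because their products act on imprints, DNA methylation or chromatin carried no listed site. The 16 genes included Zfp57 and Zfp445, whose products bind control regions, and their partner Trim28. The maintenance methyltransferase Dnmt1, its recruiter Uhrf1, and the de novo methyltransferases Dnmt3a and Dnmt3b with the germ-cell cofactor Dnmt3l were included. So were Dppa3, the insulator protein gene Ctcf and the methylcytosine dioxygenases Tet1 to Tet3, which do not set or keep imprints. Of the 16 genes, 0 had a listed CpG in the span or within 5 kb, where 6.51% of protein-coding genes did. Among 16 genes a count of 0 is near that share, and coverage at these genes is unknown, so nothing is read from it. The nearest listed sites were 21.7 kb (Dnmt3l) to 822.1 kb (Zfp57) away.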

How the data were processed

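The build was GRCm38 (mm10) and the tool methylKit, per the submitters' processing notes. Aligner, minimum coverage, type of test, calculation of q-values and version of the tool were not given in the sources used here. Per the file headers, the authors' deposited tables hold a position, strand, p-value, q-value and methylation difference in percentage points for each listed site. The hypermethylated and hypomethylated tables together equalled the whole table. The largest q-value among the 2798 sites was 3.62e-05, and 2073 were written as 0.

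With pandas 2.3.3, sites were assigned to RefSeq gene spans (GRCm38.p6, 49980 genes with a chromosome, 21900 protein-coding) with 5 kb on either side, and joined within 1 kb into runs. Starts, strands and 300-base windows came from the RefSeq table of starts. It covered 45 of the 57 imprinted genes. The code was tested on simulated positions. No test across libraries could be made and none was replaced by a test over sites. Members and lists were chosen with earlier results of these data known. The genes named are the members, listed genes with a site, genes of the same 4 clusters, and runs near the Snrpn and Gnas runs in size; other genes are named from the lists as examples. Alternatives were a window of 0 or 20 kb, a minimum difference of 30 or 40 points, joining within 100 bp or 10 kb, the median of a run, and the separately deposited tables.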

Additional observations from a re-analysis of the deposited data

How the results depend on the processing

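The 9 sites at Snrpn, Snurf and Snhg14 were listed under every window, minimum difference and table tried, but no setting could have removed them. All lie inside the gene spans, the smallest differed by 41.4 points, and the separate tables together equal the whole table. Their mean of 46.0 points moved only when the median was taken (45.4). The joining distances could not change that mean, because gaps in the run were 2 to 24 bases and the nearest other listed site was 1425.8 kb away. The mean of the Gnas run, -33.2 points, became -34.3 with at least 30 points and -33.1 as a median. With at least 40 points 0 Gnas sites were left, so that run then has no value, and 3 imprinted genes carried a site in place of 7. With 20 kb on either side 10 imprinted genes did, the added ones being Nnat, Blcap and Kcnk9. The Dlk1 site was lost with the gene span alone (0 sites) and with at least 30 or 40 points (0 sites), and the Kcnq1 site with at least 30 or 40 points (0 sites), since fewer sites or a shorter region were counted. Of 39 alternative values 29 stayed within the limits set for a change, 10 moved and 0 turned their direction. Most of these values are counts, which have no direction to turn, so the last number says little. By those limits 10 imprinted genes in place of 7 stayed the same, whereas 45.4 points in place of 46.0 moved. The separate tables hold the same sites as the whole table, so values from them could not move. No paired analysis was possible because the deposited tables hold no value for a library, and for the same reason no library could be left out. The depth behind each site is unknown.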
